A study of Mus musculus with 9 samples.

Results

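The annexins *Anxa1*, *Anxa2*, *Anxa3*, *Anxa4*, *Anxa5*, *Anxa6*, *Anxa7*, *Anxa8* and *Anxa11* were taken by gene symbol from both count tables, which made 9 of 23366 gene entries, and were followed through all 9 libraries. Annexins are proteins that attach to membrane phospholipids when calcium binds to a conserved core of repeats, while their N-terminal tails differ and dock other proteins, among them S100 proteins. They serve in membrane repair, vesicle fusion, endocytosis and exocytosis. In epithelia several of them line the inner face of the plasma membrane, and *Anxa1* is also released as a mediator that limits inflammation and is known as a glucocorticoid-responsive gene.

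The RNA came from cultured mouse epithelial cells of the C57BL/6 strain. The mSGc line arose by spontaneous immortalization of submandibular salivary gland cells from male mice aged 12 weeks, and 1 library each was made from passages P2, P4, P10 and P25 in a medium that the labels name for progenitor cells and from P10 and P25 in a medium named for differentiating cells. IMOK is an immortalised line of oral keratinocytes from mice of the same strain and age, sequenced as 3 numbered replicates in a medium of its own at a passage that the labels call early and the study's text equates with that of P10 mSGc. No engineered change and no treatment are named for either line, and the study reports an abnormal karyotype for mSGc. The study's methods describe a serum-free medium with dexamethasone and a serum-containing medium with hydrocortisone, retinoic acid and triiodothyronine, and the label names do not say which is which. As models, mSGc is a single line selected by growth in culture with no condition sequenced more than once, and nothing says that the IMOK replicates came from separate cultures, so p-values measure the spread between these libraries.

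Total counts ran from 6237884 in the P25 library in differentiating medium to 18444963 in IMOK replicate 1. A level of 3 counts, the limit that a count of 0 allows, corresponded to between 0.163 and 0.481 CPM, and this floor covers counting error only. Levels are given as TPM, in which counts are divided by gene length so that genes can be compared. All 7 epithelial markers reached 1 TPM in every library, and their sum ran from 10070 to 24100 TPM. *Krt5*, a keratin of basal cells, was the highest of them in the P4, P10 and P25 libraries in progenitor medium and in all 3 IMOK libraries, *Krt8*, a keratin of simple epithelia, at P2, and *Krt14* in differentiating medium. Endothelial markers summed to at most 0.945 TPM, leukocyte markers other than *Cd68* stayed at or under 0.112 TPM, and mesenchymal markers summed to at most 19.1 TPM, in the P2 library. Of the acinar markers *Bhlha15* and *Lpo* stayed under 1 TPM in every library, *Aqp5*, a water channel, was at 1.40 to 20.9 TPM in mSGc and at 213, 111 and 73.0 TPM in IMOK, and *Amy1*, an amylase, was at 0 to 3.38 TPM in mSGc and at 0.129, 22.1 and 24.9 TPM in IMOK.

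IMOK replicate 1 stood apart from the other IMOK libraries. Pearson's r of log2(TPM + 1) across genes was 0.927 and 0.912 for its pairs and 0.991 for replicates 2 and 3, and chi-square per degree of freedom was 122 and 146 against 17.4. *Acta2*, a smooth muscle and myoepithelial actin, was at 880 TPM in replicate 1 against 7.08 and 13.8, and *Cd68*, a macrophage and lysosome protein, at 33.4 TPM against 8.74 and 4.58. The annexins differed by a median of 0.44 and 0.48 on the log2 scale between replicate 1 and the others and by 0.17 between replicates 2 and 3. Fold changes against IMOK are therefore followed by those without replicate 1.

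Every annexin of the set was counted in every library, with a lowest count of 543 for *Anxa11* in P10 progenitor medium, and all 9 passed the filter on low counts in each comparison. Together they made up 21450 TPM at P2, 13600 at P4, 7426 at P10 and 6967 at P25 in progenitor medium, 17270 at P10 and 10550 at P25 in differentiating medium, and 6576, 7550 and 7578 in IMOK. The sum was highest in the earliest library and in the P10 library in differentiating medium, and the later libraries in progenitor medium were at the level of IMOK. Of all transcripts this was between 0.697% and 2.15% in mSGc and between 0.658% and 0.758% in IMOK. Once *Anxa1* was taken out, the sums lay between 3674 and 6795 TPM in mSGc and between 4052 and 4539 TPM in IMOK, and these ranges overlapped.

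*Anxa1*, *Anxa2* and *Anxa3* were the highest annexins, in this order, in all 9 libraries, and *Anxa11* was the lowest in all 9. *Anxa1* alone held between 37.9% and 70.0% of the annexin sum in mSGc and between 38.4% and 45.3% in IMOK. In the P2 library it had more counts and more TPM than any other gene, and it ranked 2 by TPM at P10 in differentiating medium, 8 at P4, 11 at P25 in differentiating medium, 45 at P10 and 67 at P25 in progenitor medium, and 58, 21 and 31 in IMOK. Within mSGc the medians went down from 6595 TPM for *Anxa1* to 2620 for *Anxa2* and 862 for *Anxa3*, and from there through *Anxa5* (501), *Anxa8* (381), *Anxa6* (210), *Anxa4* (145) and *Anxa7* (134) to *Anxa11* (67.3). Below *Anxa3*, *Anxa5* exceeded *Anxa8* in 3 of 6 libraries and *Anxa4* exceeded *Anxa7* in 2 of 6, so these pairs were not ordered. *Anxa8* exceeded *Anxa6*, and *Anxa6* exceeded *Anxa4*, in 5 of 6 libraries each, and *Anxa7* exceeded *Anxa11* in 6 of 6 with ranges that did not overlap. In IMOK the order of the medians was the same, and there *Anxa4* exceeded *Anxa7* in 3 of 3.

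**Figure D1:**
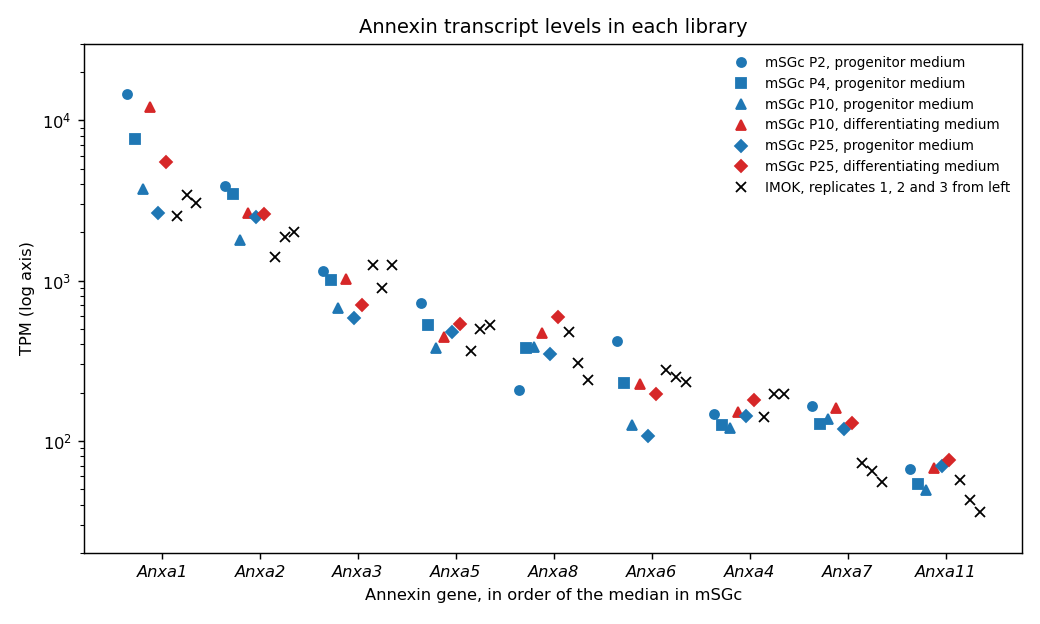
TPM on a log axis of the 9 annexins, ordered by their median in mSGc, with 1 point for each library (mSGc by passage and medium, crosses for the 3 IMOK replicates). *Anxa1* spans 2640 to 14660 TPM in mSGc, and for *Anxa7* every mSGc point (118.6 TPM or more) lies above every IMOK point (72.8 TPM or less).

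The first comparison asked which annexins separated the salivary line from oral keratinocytes over all passages and media. *Anxa7* and *Anxa11*, which carry the long tails of the family, were higher in mSGc, and *Anxa2* and *Anxa1* had positive fold changes just outside the threshold. At an adjusted p under 0.05 (edgeR, quasi-likelihood test, Benjamini-Hochberg over 12885 genes), 2 of the 9 annexins (22.2%) were called, against 14.9% of all genes tested, so that the number called was close to the background. Both were higher in mSGc, where 848 genes were called higher and 1070 lower. This split depends on scaling, since leaving out the TMM factors moved the median of all genes to -0.10 and gave 663 genes higher and 1373 lower, with *Anxa7* the single annexin called. The median log2 fold change of the 9 annexins was 0.47, against 0.00 for all genes tested. Cell line and medium changed together here and cannot be told apart, and the labels name no batch that could be set beside them. In bulk RNA more cells that express a gene and more RNA in each cell cannot be told apart either.

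*Anxa7*, a long-tailed annexin named for its part in membrane fusion during exocytosis, was at 166 TPM at P2, 127 at P4, 138 at P10 and 119 at P25 in progenitor medium and at 159 and 130 at P10 and P25 in differentiating medium. The IMOK libraries had 72.8, 65.2 and 55.1 TPM. Every mSGc library lay above every IMOK library, and the highest mSGc value was only 1.40 times the lowest. *Anxa7* was the single annexin of 9 (11.1%) whose lines did not overlap, which was the case for 22.3% of all genes tested. Its log2 fold change was 1.34 (SE 0.139, adjusted p = 0.000357), a level 2.52 times that of IMOK, and it stayed called in each of 14 alternatives, with log2 fold changes between 1.23 and 1.37. Without IMOK replicate 1 it was 1.37 (SE 0.158, adjusted p = 0.00133).

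*Anxa11*, which also has a long tail and is known for a role in cytokinesis and for tethering RNA granules to lysosomes, was the least abundant member. It was at 67.1, 53.8, 49.3 and 69.3 TPM at P2, P4, P10 and P25 in progenitor medium, at 67.5 and 75.5 TPM at P10 and P25 in differentiating medium, and at 57.2, 42.8 and 35.9 TPM in IMOK. IMOK replicate 1 lay above the P4 and the P10 libraries in progenitor medium, so the lines overlapped. The log2 fold change was 0.73 (SE 0.196, adjusted p = 0.0335) with all libraries and 0.86 (SE 0.219, adjusted p = 0.0316) without IMOK replicate 1. The call was lost without TMM factors (adjusted p = 0.0609) and on leaving out the P25 library in progenitor medium (0.0505), that in differentiating medium (0.0561), IMOK replicate 2 (0.133) or IMOK replicate 3 (0.132), within a range of 0.00320 to 0.133 over all alternatives. In the fits that lost the call the log2 fold change lay between 0.61 and 0.71.

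*Anxa1* was at 14660 TPM at P2, 7663 at P4, 3752 at P10 and 2640 at P25 in progenitor medium, at 12100 and 5527 TPM at P10 and P25 in differentiating medium, and at 2524, 3421 and 3039 TPM in IMOK. Of the mSGc libraries 5 of 6 exceeded every IMOK library, and the P25 library in progenitor medium lay within IMOK. The log2 fold change of 1.53 had a wide error (SE 0.493, adjusted p = 0.0630), 2.88 times the level of IMOK, and it was 1.36 (SE 0.587, adjusted p = 0.147) without IMOK replicate 1. DESeq2, which called 2900 of 12885 genes, called it (adjusted p = 0.00486). So did edgeR when the P10 (0.0481) or the P25 library (0.0339) in progenitor medium was left out. *Anxa2*, which pairs with *S100a10* at the plasma membrane and binds plasminogen and its activator, was at 3917, 3477, 1804 and 2483 TPM at P2, P4, P10 and P25 in progenitor medium. It was at 2640 and 2600 TPM at P10 and P25 in differentiating medium and at 1412, 1876 and 1997 TPM in IMOK. Only the P10 library in progenitor medium fell among the IMOK values. The log2 fold change was 0.88 (SE 0.283, adjusted p = 0.0615), called by DESeq2 (0.00828) and without that P10 library (0.0332), and 0.70 (SE 0.304, adjusted p = 0.152) without IMOK replicate 1.

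The remaining 5 annexins had unadjusted p-values over 0.05 and overlapped between the lines. *Anxa3*, a short-tailed annexin, was at 584 to 1145 TPM (median 862) in mSGc and at 1253, 895 and 1256 TPM in IMOK, and *Anxa4*, which is found in secretory and absorptive epithelia, at 120 to 180 TPM (median 145) and at 140, 197 and 195 TPM. *Anxa5*, the phosphatidylserine-binding protein used to stain dying cells, was at 380 to 728 TPM (median 501) in mSGc and at 366, 497 and 528 TPM in IMOK. *Anxa6*, whose core is doubled and which acts in membrane traffic and repair, was at 107 to 418 TPM (median 210) in mSGc and at 275, 251 and 234 TPM in IMOK. *Anxa8*, an annexin of stratified epithelia linked to late endosomes, was at 206 to 593 TPM (median 381) in mSGc and at 476, 304 and 238 TPM in IMOK, where replicate 1 was the highest. With all libraries their log2 fold changes were -0.20 (*Anxa3*), -0.09 (*Anxa4*), 0.36 (*Anxa5*), -0.03 (*Anxa6*) and 0.47 (*Anxa8*), and without IMOK replicate 1 they were -0.19, -0.28, 0.16, -0.03 and 0.72, with adjusted p-values of 0.203 or more. With any single library left out *Anxa3* lay between -0.34 and -0.06, *Anxa5* between 0.16 and 0.51 and *Anxa8* between 0.31 and 0.72, and none of these 5 was called.

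Positions are those of the count tables (mm9). *Anxa7* (chromosome 14, 21274483 to 21299355, minus strand), *Anxa11* (26661641 to 26706290, plus strand) and *Anxa8* (34899176 to 34913754, plus strand) share chromosome 14. The other 421 genes tested there had a median log2 fold change of 0.36 in mSGc against IMOK, and 15.4% of them were called higher. The change of *Anxa7* was larger than this median, and those of *Anxa11* and *Anxa8* were nearer to it. *Anxa1* (chromosome 19, 20447924 to 20465161, minus strand) lay above the median of the other 465 genes of its chromosome, -0.55, and 1.51% of those were called higher. *Anxa3* (chromosome 5, 97222404 to 97274987, plus strand) with -0.20 was above the median of 822 others, -0.56. Whether the position of the genes has a part in these values was not tested.

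With the mSGc libraries of P10 only, 1 in each medium, *Anxa7* was higher and 1 of 9 annexins (11.1%) was called, against 4.20% of 13018 genes tested. *Anxa7* had a log2 fold change of 1.38 (SE 0.181, adjusted p = 0.0250), with both P10 libraries above all of IMOK. *Anxa1* had a log2 fold change of 1.52 (SE 0.504, adjusted p = 0.140) and was called by DESeq2 (0.0188), as were 2231 of 13018 genes. Its 2 P10 libraries differed more from each other than the lower one did from IMOK. With 1 of them left out its log2 fold change was 0.55 (progenitor medium alone) or 2.07 (differentiating medium alone). *Anxa11* had 0.54 (SE 0.220, adjusted p = 0.198) and *Anxa8* 0.53 (SE 0.278, adjusted p = 0.296). On chromosome 14 the median of the other 427 genes was 0.05 here. The call of *Anxa7* was lost without the P10 library in progenitor medium (adjusted p = 0.106), without IMOK replicate 2 (0.149) or replicate 3 (0.110), and without the P10 library in differentiating medium (0.138). With either P10 library left out, mSGc is a single library, the spread comes from IMOK alone and 0 genes were called, while the log2 fold change of *Anxa7* was 1.39 and 1.34. Leaving out IMOK replicate 1 raised the calls over all genes from 547 to 3416 of 12602 (27.1%). *Anxa7* (1.40, SE 0.160, adjusted p = 0.00870) and *Anxa8* (0.76, SE 0.190, adjusted p = 0.0399) were then called, 2 of 9 annexins (22.2%), while *Anxa8* was at 0.33 to 0.58 and not called with any other library left out. Without replicate 1 *Anxa1* was at 1.36 (SE 0.556, adjusted p = 0.129) and *Anxa11* at 0.66 (SE 0.188, adjusted p = 0.0534). These libraries are also part of the first comparison, so the results are not independent.

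**Figure D2:**
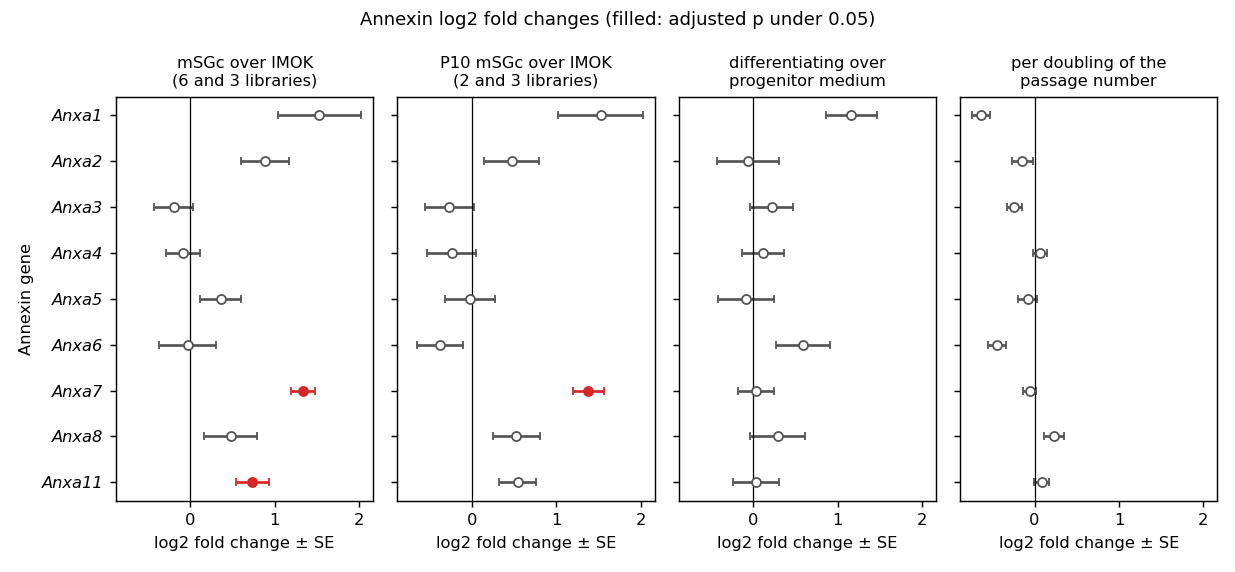
Log2 fold change with its standard error for each annexin in 4 comparisons, on 1 shared axis, from edgeR's quasi-likelihood fits. Filled points mark an adjusted p under 0.05 over all genes, which are *Anxa7* (1.34) and *Anxa11* (0.73) for mSGc over IMOK and *Anxa7* (1.38) for P10 mSGc over IMOK.

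Growth medium was compared within mSGc, between cultures in progenitor medium and cultures in differentiating medium. *Anxa1* was higher in differentiating medium at both passages, at 12100 against 3752 TPM at P10 and 5527 against 2640 TPM at P25, which is 3.22 and 2.09 times as high. *Anxa6* was at 225 against 125 TPM at P10 and 195 against 107 TPM at P25, or 1.81 and 1.83 times as high. These were the 2 of 9 annexins (22.2%) with at least 1.5 times the TPM in differentiating medium at both passages, a rule met by 7.43% of 12451 genes. All 9 annexins had a higher TPM in differentiating medium at both passages, as did 43.6% of all genes, with ratios from 1.05 (*Anxa2* at P25) upward, and *Anxa7* stood at 1.16 and 1.09. Each ratio rests on 1 library a side. Epithelial markers also differed, with *Krt18*, a keratin of simple epithelia, at 4.47 and 3.58 times and *Krt8* at 5.57 and 1.84 times their TPM in progenitor medium at P10 and P25. Of the basal markers *Krt5* was at 0.424 and 0.273 times, *Krt14* at 1.25 and 0.581 times and *Trp63*, a transcription factor of basal cells, at 0.704 and 1.32 times. The acinar marker *Aqp5* was at 12.9 and 1.64 times and the myoepithelial marker *Acta2* at 9.29 and 0.106 times. Mesenchymal markers summed to 4.26 against 0.874 TPM at P10 and to 4.48 against 0.320 TPM at P25. In differentiating medium only 1 of them reached 1 TPM at each passage, *Dcn* at P10 (3.79 TPM, 50 counts) and *Col3a1* at P25 (2.29 TPM, 40 counts). *Col1a1* was lower there at both passages, at 0.202 against 0.555 TPM and 0.136 against 0.225 TPM. Whether a change in the kinds of cells has a part in the annexin ratios was not tested.

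In the fit of all 6 mSGc libraries, with the log2 passage number beside the medium, 0 of 9 annexins were called, against 0.0241% of all genes, by edgeR's quasi-likelihood test. By the same test 1 of the 9 annexins had an unadjusted p under 0.05, as did 1018 of 12451 genes. It was *Anxa1*, with a log2 fold change of 1.16 (SE 0.299, adjusted p = 0.291). DESeq2 called *Anxa1* (adjusted p = 0.00174) among 272 genes, while voom called 0. *Anxa6* followed with 0.59 (SE 0.318, adjusted p = 0.750), and with 0.31 without the P25 and 0.91 without the P10 library in differentiating medium. The fit gave 7 of 9 annexins (77.8%) a positive value, against 48.6% of all genes, with *Anxa2* at -0.06, *Anxa5* at -0.08 and *Anxa7* at 0.03. On leaving out single libraries *Anxa2*, *Anxa4*, *Anxa5*, *Anxa7*, *Anxa8* and *Anxa11* changed sign, so the number of positive values was not stable. The adjusted p of *Anxa1* ranged from 0.00174 to 1.00 over 12 alternatives, and its log2 fold change from 1.03 to 1.53. P2 and P4 were sequenced in progenitor medium only, so the fit leans on the passage term to set them beside the later libraries.

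Passage was followed from P2 to P25. *Anxa1* in progenitor medium was lower at each step, 14660, 7663, 3752 and 2640 TPM, and the P2 level was 5.55 times that of P25. *Anxa6* was at 418, 231, 125 and 107 TPM, 3.91 times as high at P2 as at P25, and *Anxa3* at 1145, 1016, 673 and 584 TPM, 1.96 times as high. These 3 of 9 annexins (33.3%) had a lower TPM at each of these steps, against 8.79% of all genes tested. In differentiating medium *Anxa1* was also lower at P25 than at P10, by a ratio of 2.19 in favour of P10, and *Anxa6* by 1.15. *Anxa8* had its lowest level at P2, 206 TPM, and 378, 385 and 350 TPM at P4, P10 and P25. *Anxa4* and *Anxa11* had about the same TPM at P2 and P25, with ratios of P2 to P25 of 1.04 and 0.968.

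In the fit 0 of 9 annexins passed an adjusted p of 0.05 by edgeR's quasi-likelihood test, against 0.490% of all genes. *Anxa1* came closest, with a log2 change of -0.64 for each doubling of the passage number (SE 0.108, adjusted p = 0.0669), then *Anxa6* with -0.45 (SE 0.109, adjusted p = 0.145) and *Anxa3* with -0.24 (SE 0.0915, adjusted p = 0.329). DESeq2, which called 700 of 12451 genes, called *Anxa1* (1.47e-08) and *Anxa6* (0.00665), and voom called 0 annexins. Without the P10 library in progenitor medium edgeR called *Anxa1* (0.0283) among 329 genes. The adjusted p of *Anxa1* reached 0.559 without the P2 library, where its log2 change was -0.59. *Anxa8* had the largest positive value, 0.23 (SE 0.121, adjusted p = 0.475), which lay between 0.06 and 0.39 with single libraries left out. The myoepithelial markers were also highest at P2 within mSGc, with *Acta2* at 544, 106, 7.86 and 48.0 TPM from P2 to P25 in progenitor medium and at 73.0 and 5.08 TPM in differentiating medium. Their list summed to 569 TPM at P2, with all 3 genes above 1 TPM, and *Cnn1* and *Myh11* were at 0 counts in both P25 libraries. From P2 to P25 in progenitor medium *Krt18* was at 4548, 1825, 738 and 516 TPM and *Krt8* at 6326, 2940, 672 and 1172 TPM. *Krt5* was at 3119, 9234, 9214 and 9386 TPM and *Trp63* at 27.6, 44.1, 94.6 and 71.3 TPM, both lowest at P2, and *Krt14* at 5623, 8929, 4728 and 9091 TPM, lowest at P10. Whether a change in the kinds of cells has a part in the level of *Anxa1* was not tested.

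**Figure D3:**
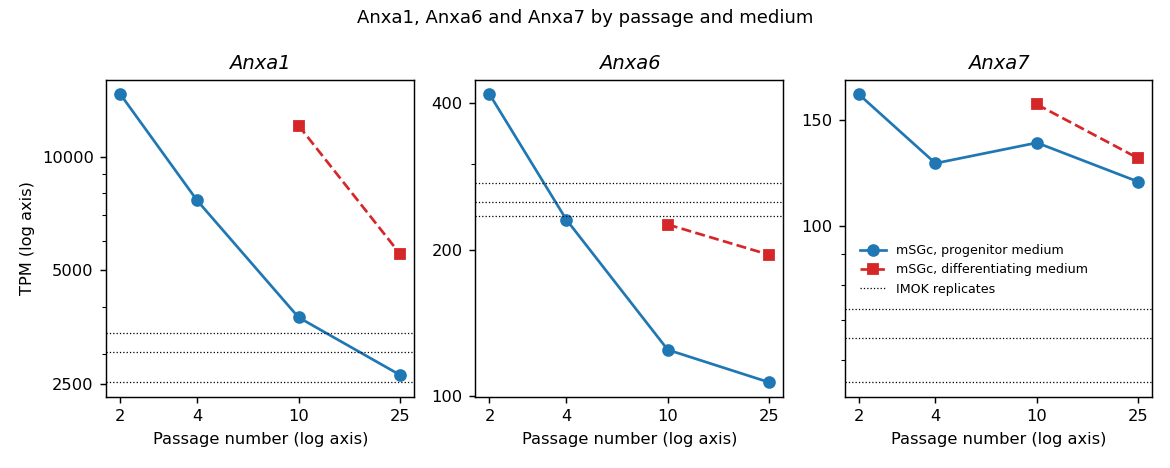
TPM of *Anxa1*, *Anxa6* and *Anxa7* against the passage number, both on log axes, in progenitor medium (circles) and differentiating medium (squares), 1 library a point, with the 3 IMOK libraries as dotted lines. *Anxa1* and *Anxa6* lie lower at each later passage in progenitor medium and higher in differentiating medium, while *Anxa7* stays between 118.6 and 166 TPM, above IMOK.

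Across the 9 libraries the members did not move as 1 group. As a description of n = 9 libraries that share lines and media, Pearson's r of log2(TPM + 1) was highest for *Anxa3* with *Anxa6* (0.835), *Anxa1* with *Anxa2* (0.807), *Anxa2* with *Anxa5* (0.802) and *Anxa7* with *Anxa11* (0.760), and lowest for *Anxa5* with *Anxa8* (-0.584) and *Anxa4* with *Anxa7* (-0.582). For the 3 annexins with the widest range, the most similar genes were sought among 12828 others. *BC031181* (r = 0.967), *Lphn2* (0.959), an adhesion receptor, and *Kctd14* (0.959) were closest to *Anxa1*, with *Kctd14* at 36.6 TPM at P2, 50.9 at P10 in differentiating medium, 5.61 at P25 in progenitor medium and 2.57 to 6.67 in IMOK. *Myo1e* (0.959), a membrane-bound myosin, *Fam107b* (0.948) and *Cystm1* (0.939) were closest to *Anxa6*. *Fbxo44* (0.986) and *H2-T23* (0.985), a non-classical MHC class I gene, were closest to *Anxa7*. *H2-T23* was at 63.1 to 155 TPM in mSGc and at 23.0, 15.2 and 8.24 TPM in IMOK. *Fbxo44* had low levels and ranked 77 instead of 1 with a pseudocount of 0.1.

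The family's other genes and partners were counted from fixed lists. *Anxa10* had 0 counts in all 9 libraries, *Anxa13* stayed at or under 1.61 TPM, and *Anxa9* was at 1.91 to 7.57 TPM in mSGc and at 8.07, 7.69 and 5.43 TPM in IMOK, where it was not called (log2 fold change -0.72, SE 0.447, adjusted p = 0.310, and -0.68 without IMOK replicate 1). Of the 6 S100 genes 5 were tested, and 1 of 5 was called in mSGc against IMOK, where 14.9% of all genes were called. This was *S100a1*, a calcium-binding regulator of muscle calcium handling, at 48.4 to 143 TPM in mSGc against 6.49, 5.09 and 4.87 TPM (log2 fold change 4.30, SE 0.355, adjusted p = 8.94e-05, and 4.37 without IMOK replicate 1). *S100a10*, the partner of *Anxa2*, was at 1445 to 3019 TPM in mSGc and at 483, 1124 and 1340 TPM in IMOK, without overlap, and missed the threshold (1.32, SE 0.404, adjusted p = 0.0525, and 0.97 with 0.0967 without IMOK replicate 1). *S100a11*, the partner of *Anxa1*, was at 1870 to 5387 TPM in mSGc and overlapped IMOK at 966, 3193 and 3305 TPM. For both S100 genes IMOK replicate 1 was the lowest library, and the log2 fold change of *S100a11* was 0.70 with it and 0.29 without it.

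Of 15 other partners and repair genes 11 were tested, and 1 was called higher and 3 lower in mSGc than in IMOK, together 36.4% against 14.9% of all genes. *Pla2g4a*, the cytosolic phospholipase A2 that *Anxa1* is known to inhibit, was higher (1.24, SE 0.316, adjusted p = 0.0275), a call lost without IMOK replicate 1 (1.05, adjusted p = 0.0773). *Plat*, the plasminogen activator that binds *Anxa2*, was lower, at 0.601 to 7.31 TPM against 67.2, 60.6 and 68.1 TPM (-3.77, SE 0.535, adjusted p = 0.00206). *Capn2*, a calpain of membrane repair (-1.18, SE 0.257, adjusted p = 0.0145), and *Sri*, whose product sorcin binds the tail of *Anxa7* (-0.70, SE 0.163, adjusted p = 0.0184), were lower as well. Without IMOK replicate 1 *Plat* (-3.81), *Capn2* (-1.24) and *Sri* (-0.80) stayed called. *Sri* was at 47.9 to 72.2 TPM in mSGc and at 111, 126 and 112 TPM in IMOK, the opposite order to *Anxa7*. *Pdcd6*, the calcium sensor that binds the tails of *Anxa7* and *Anxa11*, was not called (0.47, SE 0.220, adjusted p = 0.177, and 0.26 without IMOK replicate 1). Of the formyl peptide receptors through which *Anxa1* signals, *Fpr2* had 0 counts in all 9 libraries and *Fpr1* stayed at or under 0.189 TPM. By edgeR's quasi-likelihood test *S100a1* was also called at P10 against IMOK (4.27, adjusted p = 0.0197). It was 1 of 5 S100 genes, with 0 of 11 partners called, against 4.20% of all genes tested. Without IMOK replicate 1, when 27.1% of all genes were called there, *S100a1* (4.32) and 7 of 11 partners (63.6%) passed. For medium and for passage 0 of 5 S100 genes and 0 of 11 partners passed, against 0.0241% and 0.490% of all genes tested.

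What the members share beyond their names was read from the annotation of the same build (GENCODE vM1). Their longest annotated coding sequences had 319 to 355 codons for *Anxa1*, *Anxa2*, *Anxa3*, *Anxa4*, *Anxa5* and *Anxa8*, 485 for *Anxa7* and 503 for *Anxa11*, the long-tailed members, and 673 for *Anxa6*, whose core is doubled. *Anxa6* had 26 exons in the count tables and the others 12 to 15. No exon of another gene overlapped theirs in that annotation or in the exons listed by the count tables. Spans were taken there from the lowest to the highest exon position under each name. By this rule the span of *Anxa2* overlaps those of *Cdkn2d* and *Mir3109*, and that of *Anxa8* overlaps *A630023A22Rik*. A name with exon entries at distant places would get too wide a span, which was not checked for these genes.

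Start regions were looked up for the 4 annexins with an unadjusted p under 0.05 between the lines, to show what surrounds their transcription start. Of all 12885 genes tested 3922 met that threshold. RefSeq windows of 250 bases before to 50 bases after the start (GRCm38.p6) were held for 7 of the 9 members, in 9 windows, and were searched on both strands for the TATA box (TATAAA), the GC box (GGGCGG) and the AP-1 site (TGANTCA). Of all 32851 windows 13.6%, 35.7% and 7.81% held these letters. Matches are in capitals, none overlapped another, and a match is a description of letters only. *Anxa1* (chr19:20390622-20390921, minus strand, 47.3% G or C) held a TATA box 32 bases before the start and none of the other motifs. *Anxa2* (chr9:69453433-69453732, plus strand, 63.7% G or C) held all 3 kinds, with a TATA box, 3 GC boxes and an AP-1 site. *Anxa7* (chr14:20479892-20480191, minus strand, 60.7% G or C, the downstream one of its windows) and *Anxa11* (chr14:25841905-25842204, plus strand, 59.7% G or C) held 4 and 3 GC boxes and neither of the other motifs. The other *Anxa7* window, which lies upstream and overlaps this one, had 44.7% G or C and 1 GC box.

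*Anxa1*: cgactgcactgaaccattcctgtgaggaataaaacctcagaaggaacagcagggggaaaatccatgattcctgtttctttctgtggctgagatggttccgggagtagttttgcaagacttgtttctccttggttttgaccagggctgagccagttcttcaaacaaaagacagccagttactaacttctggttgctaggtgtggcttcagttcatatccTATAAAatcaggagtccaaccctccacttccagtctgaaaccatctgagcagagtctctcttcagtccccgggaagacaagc

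*Anxa2*: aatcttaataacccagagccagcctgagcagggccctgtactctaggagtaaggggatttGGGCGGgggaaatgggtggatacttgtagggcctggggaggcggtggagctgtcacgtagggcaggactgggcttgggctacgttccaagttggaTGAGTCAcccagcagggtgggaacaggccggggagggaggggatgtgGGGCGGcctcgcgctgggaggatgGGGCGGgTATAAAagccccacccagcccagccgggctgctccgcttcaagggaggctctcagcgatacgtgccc

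*Anxa7*: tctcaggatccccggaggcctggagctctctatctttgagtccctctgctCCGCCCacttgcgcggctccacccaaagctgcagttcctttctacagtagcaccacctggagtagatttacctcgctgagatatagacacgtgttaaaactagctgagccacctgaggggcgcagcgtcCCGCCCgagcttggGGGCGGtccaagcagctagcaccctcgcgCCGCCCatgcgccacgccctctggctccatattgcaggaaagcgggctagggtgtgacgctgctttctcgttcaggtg

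*Anxa11*: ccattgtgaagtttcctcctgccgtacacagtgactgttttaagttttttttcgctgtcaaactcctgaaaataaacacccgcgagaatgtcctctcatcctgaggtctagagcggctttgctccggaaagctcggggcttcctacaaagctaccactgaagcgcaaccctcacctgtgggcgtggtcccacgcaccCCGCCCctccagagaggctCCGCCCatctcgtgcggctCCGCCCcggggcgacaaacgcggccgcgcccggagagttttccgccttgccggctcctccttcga

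GC boxes were common over all windows, and no comparison of the windows with the expression values was tested.

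These results describe RNA in 9 libraries of cultured cells. Protein, calcium binding and location of the annexins were not measured, and each mSGc condition was sequenced as 1 library, so the difference between media or passages cannot be told apart from differences between single cultures. Medium and passage rest on 3 residual degrees of freedom, and a fold change past the threshold in one comparison and not in another was not tested as a difference. Salivary gland tissue is not among these libraries, so the levels were not set beside those of the gland. Standard errors come from the spread between libraries and not between animals.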

How the data were processed

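The members and lists were chosen with earlier results of these data known. Per the submitters' processing notes, reads were aligned to mm9 with TopHat2 2.1.1 and Bowtie2 2.2.6 and counted with featureCounts 1.5.1, and DESeq2 1.12.4 was used. The authors deposited counts of reads per gene with gene lengths, without normalization. Annotation, strand setting and treatment of reads that map to several places are not given in the sources used here, so reads shared with annexin pseudogenes could be counted either way. Of 23366 entries 27 had names turned into dates (at most 0.243% of counts) and 4 had repeated names.

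TPM was computed from counts and lengths. Tests used edgeR 4.0.16 in R 4.3.3 (quasi-likelihood, TMM, filterByExpr, Benjamini-Hochberg over all genes tested, threshold 0.05), for mSGc against IMOK, P10 mSGc against IMOK, and medium and log2 passage number in a joint fit with 3 residual degrees of freedom. Standard errors are the absolute log2 fold change over the square root of F. The fits were tested on simulated data. Alternatives were DESeq2 1.42.0, scaling by library size alone, no filter beyond at least 1 count in all libraries together, a floor of 10 counts per library, voom (limma 3.58.1), each library left out, a blocked fit of the P10 and P25 libraries, untransformed passage, progenitor medium only, CPM and a pseudocount of 0.1. Figures and levels used pandas 2.3.3, matplotlib 3.10.9 and numpy 2.4.6 under Python 3.11.15.

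Named genes are all members, *Anxa9*, *Anxa10*, *Anxa13*, fixed lists of 6 S100 genes, 15 partners and cell type markers, and, for the 3 annexins with the widest range of log2(TPM + 1), the 3 genes with the highest r among genes that reached 10 counts in 3 or more libraries. For *Anxa7*, 1 of these genes is not reported here. Protein sequences were not used here.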

Additional observations from a re-analysis of the deposited data

How the results depend on the processing

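Over all alternatives 400 single annexin fold changes kept their sign and their side of the threshold, though not always their size (*Anxa1* at P10 against IMOK ran from 0.55 to 2.07), 11 passed it, 9 lost it and 21 reversed in sign, each of the latter for a gene that was not called; the cause was not tested. For mSGc against IMOK 1918 genes and 2 annexins were called, and DESeq2 called 2900 genes and 4 annexins, while 1 annexin was called without TMM factors. With single libraries left out there were 738 to 1918 genes and 1 to 4 annexins. *Anxa4* then ranged from -0.28 to 0.0274, reversing without IMOK replicate 3, and *Anxa6* from -0.29 to 0.0931, reversing without either the P10 (0.0881) or the P25 library (0.0931) in progenitor medium. For P10 mSGc against IMOK DESeq2 called 2231 genes and 2 annexins, and the filter of 10 counts gave 272 genes. Single omissions gave 0 to 3416 genes and 0 to 2 annexins, and *Anxa5* ranged from -0.22 to 0.11, at 0.0130 without IMOK replicate 2 and 0.00700 with voom.

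For medium DESeq2 called 272 genes and 1 annexin, the fit without a filter 36 genes, the filter of 10 counts 1, voom 0 and the blocked fit 123, and single omissions 0 to 58. *Anxa2* reversed to 0.00201 without TMM factors and 0.16 in the blocked fit, with -0.30 to 0.37 over omissions, and *Anxa5* to 0.0589 in the blocked fit, with -0.36 to 0.24. Over omissions *Anxa11* ranged from -0.12 to 0.38, *Anxa4* from -0.0506 to 0.31, *Anxa7* from -0.00999 to 0.0835 and *Anxa8* from -0.0725 to 0.42. For passage DESeq2 called 700 genes and 2 annexins, the fit without a filter 161 genes, the filter of 10 counts 3, the untransformed passage number 126 and progenitor medium alone 3. Single omissions gave 0 to 329 genes and 0 to 1 annexins, with *Anxa5* from -0.19 to 0.0359 (reversed without P2) and *Anxa11* from -0.0507 (reversed without P25 in progenitor medium) to 0.18. The median annexin sum in IMOK was 0.755% of TPM and 0.552% of CPM. No paired analysis was possible because no label ties libraries of different groups to the same culture, and the blocked fit matches the media by passage only.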
